A study of Mus musculus with 12 samples.

Results

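The 9 genes described here belong to the bone morphogenetic protein (BMP) pathway and were taken from each expression table by their gene symbol, as 9 of 52636 rows. They are the ligands Bmp2, Bmp4 and Bmp6, the secreted antagonist Grem1, the receptors Bmpr1a and Bmpr2, and the target genes Id1, Id2 and Id3. Bulk RNA-seq was carried out on 12 libraries from mouse cells in culture, and the question asked was how the loss of the transcription factor KLF4 changes gene expression in smooth muscle cells (SMCs) and in lung cells that express the receptor PDGFR-β. Each cell type was treated with scrambled RNA (Scr) or with siRNA against Klf4 (siKlf4), with 3 libraries per group. The SMCs were commercial cells from CellBiologics, which the labels name as tracheal or lung airway SMCs and for which they give no age. The PDGFR-β+ cells were sorted from the lungs of mice aged 12 weeks. All 4 groups are labelled C57BL/6, the Scr groups as wild type and the siKlf4 groups as Klf4 knockdown. By the study's methods, the PDGFR-β+ cells carried a fluorescent reporter switched on by a tamoxifen-inducible Cre under the Pdgfrb promoter, which marks fibroblasts and pericytes alike. The methods also give 50 nM siRNA for 6 h, and then 72 h in the same supplemented SMC medium for both cell types. The study describes its RNA-seq experiments as independent, but nothing in the labels says that libraries of a group came from separate animals or vials, so the p-values measure the spread between these libraries.

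BMP ligands are secreted factors that bind a complex of type I receptors, such as BMPR1A, and type II receptors, such as BMPR2. The complex phosphorylates SMAD1, SMAD5 and SMAD9, which enter the nucleus with SMAD4 and switch on target genes, the Id genes among them. ID proteins lack a DNA-binding domain and hold back other helix-loop-helix factors by binding to them. Gremlin, the product of Grem1, binds BMP2 and BMP4 outside the cell and keeps them from their receptors, and in the lung loss of BMPR2 function is best known as a cause of heritable pulmonary arterial hypertension.

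The targeted gene was lowered in both cell types. Klf4 was at 89.6, 96.3 and 95.0 TPM (transcript abundance per transcript length, scaled to the same total in every library) in the Scr SMC libraries and at 26.5, 16.3 and 18.8 TPM in the siKlf4 SMC libraries, which left 21.9% of the Scr mean. In PDGFR-β+ cells it was at 144, 146 and 134 TPM with Scr and at 12.3, 13.8 and 12.8 TPM with siKlf4, which left 9.16%. For SMCs, values are given in the order of the library without a replicate number, then replicates 2 and 3, since 1 Scr and 1 siKlf4 SMC column carry no number. For PDGFR-β+ cells they are in the order of replicates 1 to 3. The summed level of 7 smooth muscle markers (Acta2, Tagln and others) was 1445 to 2238 TPM in Scr SMCs and 3345 to 4093 TPM in siKlf4 SMCs, against 5496 to 6350 TPM in Scr and 4621 to 4915 TPM in siKlf4 PDGFR-β+ cells. Thus the cells labelled SMCs had the lower sum at baseline, and Myocd was under 1 TPM in all 12 libraries. Acta2 and Tagln made up most of the sum, and in PDGFR-β+ cells, where the sum was lower with siKlf4, Myh11 rose from 20.8 to 33.4 TPM (limma, adjusted p = 0.00216) and Smtn rose from 62.3 to 77.3 TPM (adjusted p = 0.0415). In SMCs, where the sum was higher, Des was at 2.77 TPM with Scr and 1.92 TPM with siKlf4 (adjusted p = 0.0884). The 6 mesenchymal markers summed to 3040 to 3132 TPM in Scr and 1971 to 2342 TPM in siKlf4 SMCs, where Col3a1 fell to 48.7% of Scr (limma, adjusted p = 0.00432). In PDGFR-β+ cells they summed to 2808 to 3467 TPM with Scr and 2029 to 2839 TPM with siKlf4. Cspg4 fell there to 22.3% of Scr (limma, adjusted p = 0.000337), and Col1a1 (adjusted p = 0.00816) and Pdgfrb (adjusted p = 0.0218) fell too. Rgs5, at 2.27 TPM with Scr and 1.89 TPM with siKlf4, did not pass there (limma, adjusted p = 0.462). Neither did Pdgfra (adjusted p = 0.495) or Col3a1 (adjusted p = 0.691). The 6 endothelial markers summed to 1.62 to 4.08 TPM in Scr and 3.87 to 4.42 TPM in siKlf4 SMCs, with a rise of Kdr from 0.663 to 2.88 TPM (limma, adjusted p = 0.00234). Tek (0.611 and 0.293 TPM with Scr and siKlf4) and Emcn (0.700 and 0.313 TPM) were too low in SMCs to be tested. In PDGFR-β+ cells the sum was 15.3 to 18.5 TPM with Scr and 14.1 to 16.2 TPM with siKlf4. Most of it was Kdr, at 15.3 and 12.5 TPM (limma, adjusted p = 0.0715), while Tek rose from 1.33 to 2.55 TPM (adjusted p = 0.0212). Pecam1 and Cdh5 stayed under 1 TPM in all libraries. The sum over 6 epithelial markers was at most 1.22 TPM in any library. The 6 leukocyte markers summed to 28.7 to 29.9 TPM in Scr and 18.7 to 22.8 TPM in siKlf4 PDGFR-β+ cells. In SMCs they summed to 4.68 to 7.19 TPM with Scr and 4.44 to 6.51 TPM with siKlf4. Lyz2 and Cd68 made up most of the PDGFR-β+ sum. Lyz2 fell there from 19.0 to 11.3 TPM (limma, adjusted p = 0.00538), and Csf1r fell from 2.28 to 0.775 TPM (adjusted p = 0.0138). Cd68 was at 7.56 TPM with Scr and 8.77 TPM with siKlf4 (adjusted p = 0.290). Ptprc, Adgre1 and Itgam stayed under 1 TPM in all libraries. The part of these marker shifts in the results below was not tested.

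Klf4 knockdown changed 5 of the 9 genes in SMCs, of which Bmp2, Grem1 and Id1 rose and Bmp6 and Id3 fell. This count was between 1 and 5 when a single library was left out, lowest without siKlf4 replicate 2, and it was 1, Bmp6, with no filter on low values. In PDGFR-β+ cells it changed 6 of the 8 genes that could be tested, of which Bmp4, Bmp6, Bmpr1a and Id2 rose and Grem1 and Bmpr2 fell. Over all genes tested, 28.5% passed the same threshold in SMCs and 40.6% in PDGFR-β+ cells (limma on log2(TPM + 1), Benjamini-Hochberg adjusted p below 0.05). The Scr and siKlf4 values did not overlap for 47.1% of all genes tested in SMCs and for 53.8% in PDGFR-β+ cells. A lack of overlap, given below for single genes, was thus common in these data. In a test of the difference itself, the SMC and PDGFR-β+ effects of siKlf4 were unequal for Bmp6, Grem1, Bmpr2 and Id2, which is 4 of 8 genes, against a background of 33% of all genes tested. Bmp6 and Grem1 passed in both cell types and with opposite signs. In bulk RNA, fewer cells that express a gene and less of its RNA per cell cannot be told apart.

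**Figure D1:**
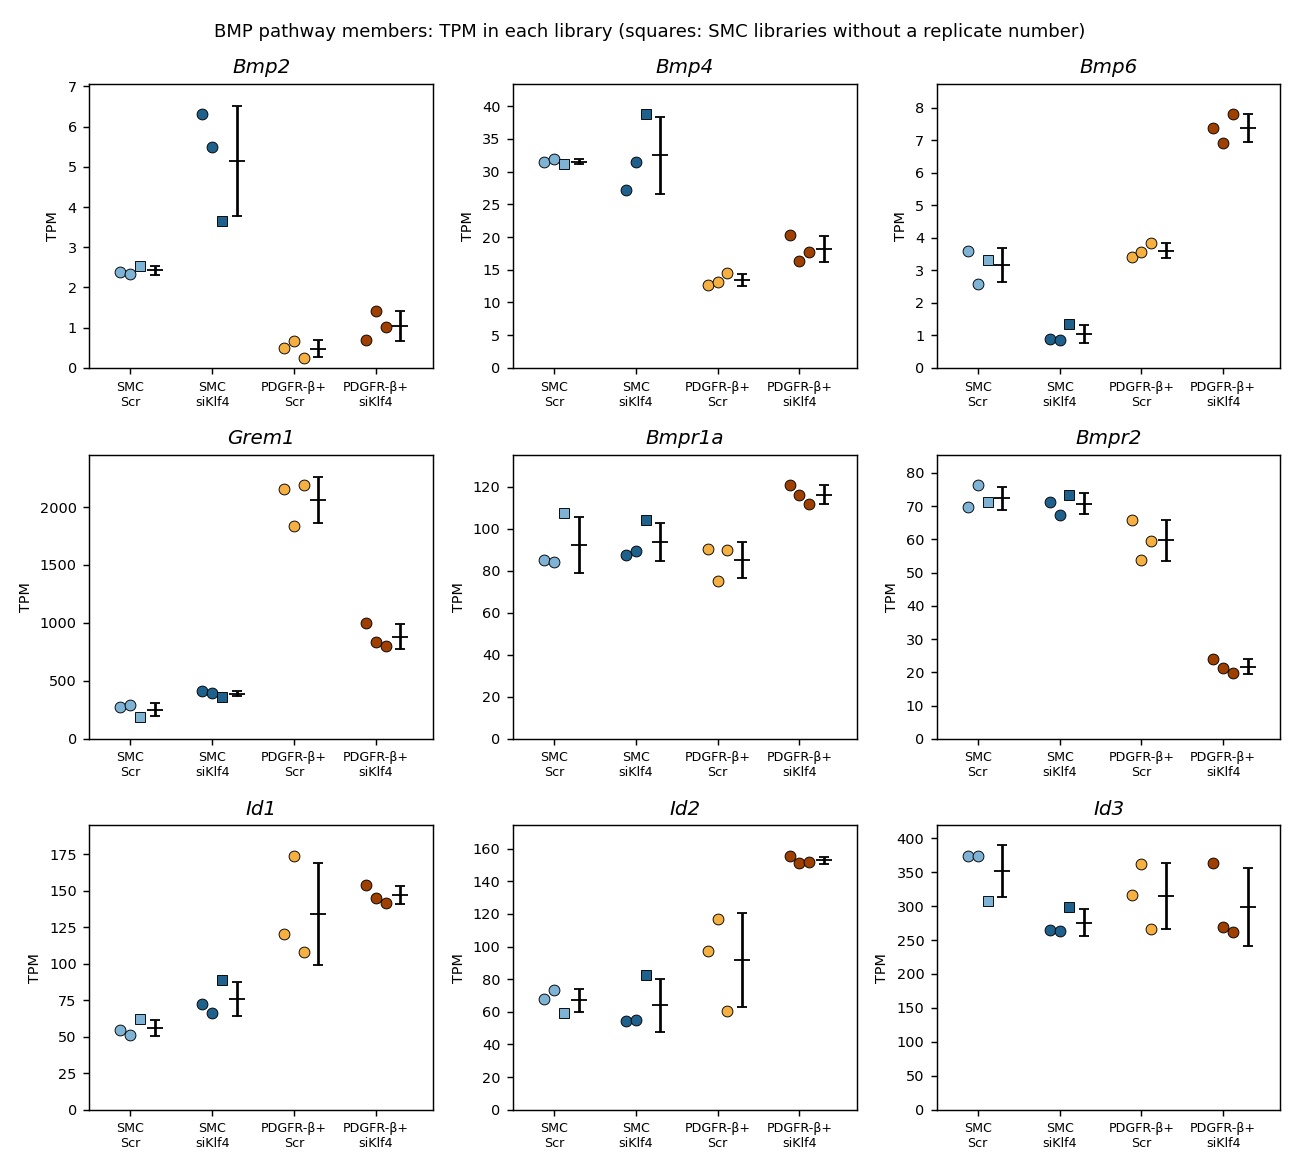
Abundance in TPM (vertical axes, linear from 0) of each of the 9 genes in the 12 libraries, by cell type and treatment. Points are libraries, squares are the SMC libraries without a replicate number, and bars give the mean ± SD of 3 libraries. Bmpr2 in siKlf4 PDGFR-β+ cells sits at 19.7 to 24.1 TPM, below the other 3 groups, and Grem1 stands highest in Scr PDGFR-β+ cells.

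At baseline, that is in the Scr libraries, mean levels ran from 2.42 TPM (Bmp2) to 352 TPM (Id3) in SMCs and over a wider range, from 0.481 TPM (Bmp2) to 2058 TPM (Grem1), in PDGFR-β+ cells. TPM is a value per transcript length, so levels can be set side by side between genes. In Scr SMCs the order of mean TPM was Id3 (352 ± 38.0, SD, n = 3), Grem1 (250 ± 56.9), Bmpr1a (92.4 ± 13.3), Bmpr2 (72.4 ± 3.46), Id2 (67.0 ± 7.13), Id1 (56.2 ± 5.45), Bmp4 (31.5 ± 0.430), Bmp6 (3.17 ± 0.519) and Bmp2 (2.42 ± 0.110). Among neighbours in that order, Bmpr2 overlapped Id2 and Id2 overlapped Id1, while every other neighbouring pair had separate values. In Scr PDGFR-β+ cells the order was Grem1 (2058 ± 196), Id3 (315 ± 48.4), Id1 (134 ± 34.9), Id2 (91.6 ± 28.6), Bmpr1a (85.3 ± 8.60), Bmpr2 (59.7 ± 6.14), Bmp4 (13.4 ± 0.923), Bmp6 (3.60 ± 0.232) and Bmp2 (0.481 ± 0.212). Here Id1 overlapped Id2 and Id2 overlapped Bmpr1a. In both cell types Bmp4 was thus the most abundant ligand of the 3.

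Between the cell types, the Scr values did not overlap for 5 of the 9 genes, beside 57.5% of the genes above 1 TPM in both. Bmp2 is among the 5 but outside that background, since its mean over the PDGFR-β+ libraries was below 1 TPM. Bmp2, Bmp4 and Bmpr2 had the higher values in SMCs, and Grem1 and Id1 had the higher values in PDGFR-β+ cells. Mean Grem1 was 8.24-fold higher in PDGFR-β+ cells and mean Id1 was 2.39-fold higher, whereas mean Bmp4 was 2.35-fold higher in SMCs. Mean Bmp2 was 5.04-fold higher in SMCs at levels of a few TPM or less. The cell types differ in source and come in separate tables, so cell type, source and table cannot be told apart here, and no test was made of these levels.

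Of the ligands, Bmp6 moved in opposite directions. Bmp6, a ligand best known for its control of hepcidin and iron uptake, lies at chr13:38345107-38500302 (mm10, forward strand). In SMCs it was at 3.32, 3.59 and 2.59 TPM with Scr and at 1.36, 0.892 and 0.863 TPM with siKlf4. In the PDGFR-β+ libraries it was at 3.39, 3.56 and 3.85 TPM with Scr and at 7.38, 6.92 and 7.80 TPM with siKlf4. The Scr levels were thus close in the cell types, every siKlf4 SMC library lay below the Scr SMC libraries, and every siKlf4 PDGFR-β+ library lay above the Scr ones. On the log2(TPM + 1) scale, which understates changes at such low levels, Bmp6 fell by 1.03 ± 0.17 (SE) in SMCs (limma, adjusted p = 0.00608) and rose by 0.86 ± 0.11 in PDGFR-β+ cells (adjusted p = 0.000793). The SMC effect minus the PDGFR-β+ effect was -1.90 ± 0.19 (limma interaction, adjusted p = 3.47e-05). Mean TPM with siKlf4 was 32.8% of Scr in SMCs and 205% of Scr in PDGFR-β+ cells. An exon of Txndc5 overlaps Bmp6 on the opposite strand, and Txndc5 was at 134 to 498 TPM in the 12 libraries. The library kit keeps the strand, but the sources used here do not state whether counting did. Txndc5 itself differed by -0.04 between siKlf4 and Scr on the log2 scale in SMCs (limma, adjusted p = 0.767) and by -0.20 in PDGFR-β+ cells (adjusted p = 0.771).

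Bmp2, a ligand that drives bone formation and also opposes growth of vascular smooth muscle, lies at chr2:133552159-133562885 (forward strand). It was at 2.54, 2.40 and 2.33 TPM in Scr SMCs and at 3.65, 6.31 and 5.49 TPM in siKlf4 SMCs. The groups did not overlap, and the siKlf4 library without a number was the lowest of its group. Bmp2 rose by 0.82 ± 0.18 on the log2(TPM + 1) scale in SMCs (limma, adjusted p = 0.0169). The adjusted p was 0.0521 without Scr replicate 2, 0.0564 without siKlf4 replicate 2, 0.0613 without siKlf4 replicate 3, and 0.0554 with no filter on low values. In PDGFR-β+ cells Bmp2 was at 0.505, 0.679 and 0.257 TPM with Scr and at 0.689, 1.41 and 1.03 TPM with siKlf4. Its mean over these 6 libraries was below the minimum of 1 TPM, and no test was made there.

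Bmp4, the ligand that patterns the airway and mesoderm in the embryo, lies at chr14:46383520-46390669 (reverse strand). In SMCs it was at 31.1, 31.5 and 32.0 TPM with Scr and at 38.8, 27.2 and 31.5 TPM with siKlf4. These groups overlapped, and the difference on the log2(TPM + 1) scale was 0.03 ± 0.13 (95% confidence interval -0.27 to 0.33, limma, adjusted p = 0.883). In PDGFR-β+ cells it was at 12.7, 13.1 and 14.4 TPM with Scr and at 20.3, 16.4 and 17.8 TPM with siKlf4, with every siKlf4 value above every Scr value. Bmp4 rose there by 0.41 ± 0.11 (limma, adjusted p = 0.0181). The adjusted p was 0.0613 without Scr replicate 1 and 0.0529 without siKlf4 replicate 1. It was 0.0564 with median-ratio scaling of the libraries and 0.0617 with quantile normalization. The SMC effect minus the PDGFR-β+ effect was -0.38 ± 0.17 (limma interaction, adjusted p = 0.106) and did not pass. With the 4 numbered SMC libraries alone it was -0.52 (adjusted p = 0.0291), with the replicate number as a block in the numbered libraries the adjusted p was 0.0496, and without the siKlf4 SMC library that has no number it was 0.0201.

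Grem1 was the most abundant of the 9 genes in Scr PDGFR-β+ cells, and its response to Klf4 knockdown also turned with the cell type. It lies at chr2:113746164-113758646 (reverse strand). In PDGFR-β+ cells Grem1 was at 2153, 1833 and 2190 TPM with Scr and at 1001, 839 and 800 TPM with siKlf4. In SMCs it was at 185, 272 and 292 TPM with Scr and at 364, 410 and 394 TPM with siKlf4. The groups did not overlap in either cell type, and the siKlf4 PDGFR-β+ libraries still held more Grem1 than any SMC library. Grem1 fell by 1.23 ± 0.11 on the log2(TPM + 1) scale in PDGFR-β+ cells (limma, adjusted p = 0.000176), to 42.8% of the Scr mean. It rose by 0.66 ± 0.17 in SMCs (limma, adjusted p = 0.0244), to 156% of the Scr mean. The difference between these effects was 1.89 ± 0.22 (limma interaction, adjusted p = 7.47e-05). The rise in SMCs had an adjusted p of 0.0775 without siKlf4 replicate 2, 0.0715 without siKlf4 replicate 3 and 0.0653 with no filter on low values, whereas the fall in PDGFR-β+ cells and the difference passed under every alternative and omission run.

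The letters just upstream of Grem1 and Bmp4 are shown because KLF4 is a zinc-finger factor whose family is known to bind GGGTG, read as CACCC on the other strand. Grem1 passed with siKlf4 in both cell types, and Bmp4 passed in PDGFR-β+ cells alone, a call that some settings and omissions ended. Their windows, unlike those of the other genes with an entry, hold no annotated exon. The sequences are from RefSeq (GRCm38.p6) and run 5′ to 3′ over the 250 bases before the gene's start, on the strand of the gene, with GGGTG and CACCC in capitals. They are chr2:113758649-113758898 for Grem1 and chr14:46390670-46390919 for Bmp4.
Grem1: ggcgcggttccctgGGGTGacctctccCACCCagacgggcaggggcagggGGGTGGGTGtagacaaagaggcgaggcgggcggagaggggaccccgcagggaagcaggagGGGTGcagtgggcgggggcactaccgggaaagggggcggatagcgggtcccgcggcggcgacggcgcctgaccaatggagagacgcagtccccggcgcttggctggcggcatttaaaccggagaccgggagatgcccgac
Bmp4: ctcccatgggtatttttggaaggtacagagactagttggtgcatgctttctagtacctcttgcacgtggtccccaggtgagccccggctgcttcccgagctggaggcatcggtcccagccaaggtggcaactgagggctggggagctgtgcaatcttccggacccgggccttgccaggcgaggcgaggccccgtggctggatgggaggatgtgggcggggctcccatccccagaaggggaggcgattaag
The Grem1 window held 5 matches, of which a pair of GGGTG overlap each other, and the Bmp4 window held 0. Of 32851 mouse promoter windows of this length, 52.0% held at least 1 match, and 219 windows (0.667%) held at least as many as Grem1. For the letters that SMAD proteins bind, the Grem1 window held 1 match to GGCGCC, 5 to GCCG or CGGC and 1 to GTCTG or CAGAC, which shares a base with the CACCC, and the Bmp4 window held 1 GCCG or CGGC and none of the others. The shares of all windows with a match to these motifs were 9.59%, 53.4% and 42.2%. Among the 9 genes, 7 had an entry, and Bmp2 and Id1 had none. The windows of Bmp6, Bmpr1a, Bmpr2, Id2 and Id3 overlap annotated exons and are not printed. They held 0, 1, 0, 2 and 2 matches to GGGTG or CACCC. A match describes letters only and is no evidence of binding.

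Of the receptors, Bmpr2 responded in PDGFR-β+ cells. Bmpr2, the type II receptor, lies at chr1:59763400-59879014 (forward strand). In PDGFR-β+ cells it was at 65.9, 53.6 and 59.4 TPM with Scr and at 24.1, 21.2 and 19.7 TPM with siKlf4. In SMCs it was at 71.1, 69.8 and 76.3 TPM with Scr and at 73.5, 71.3 and 67.4 TPM with siKlf4. The siKlf4 PDGFR-β+ libraries lay far below all others, and the SMC groups overlapped. Bmpr2 fell by 1.42 ± 0.11 on the log2(TPM + 1) scale in PDGFR-β+ cells (limma, adjusted p = 8.38e-05), which left 36.3% of the Scr mean. In SMCs the difference was -0.03 ± 0.07 (95% confidence interval -0.20 to 0.13, limma, adjusted p = 0.747). The effects differed by 1.39 ± 0.13 (limma interaction, adjusted p = 2.12e-05). The fall and the difference passed under every alternative and omission run.

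Bmpr1a, a type I receptor for BMP2 and BMP4, lies at chr14:34410734-34503341 (reverse strand). In PDGFR-β+ cells it was at 90.6, 75.4 and 89.9 TPM with Scr and at 121, 116 and 112 TPM with siKlf4, with no overlap. In SMCs it was at 108, 85.2 and 84.1 TPM with Scr and at 104, 87.4 and 89.6 TPM with siKlf4, with overlap. Bmpr1a rose by 0.45 ± 0.09 on the log2(TPM + 1) scale in PDGFR-β+ cells (limma, adjusted p = 0.00618), so that the type I receptor rose in the cells in which the type II receptor fell. The SMC difference was 0.03 ± 0.12 (95% confidence interval -0.25 to 0.30, limma, adjusted p = 0.889). The SMC effect minus the PDGFR-β+ effect was -0.42 ± 0.15 (limma interaction, adjusted p = 0.0552), which did not pass. Over the alternatives its adjusted p ran from 0.00964 to 0.120, and it passed in 5 of 10 of them and in 2 of 12 omissions of a library. Bmp4 and Bmpr1a each overlap a gene model of the opposite strand, Gm15217 at 0 TPM in every library and Gm17110 at 0.263 to 2.17 TPM.

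**Figure D2:**
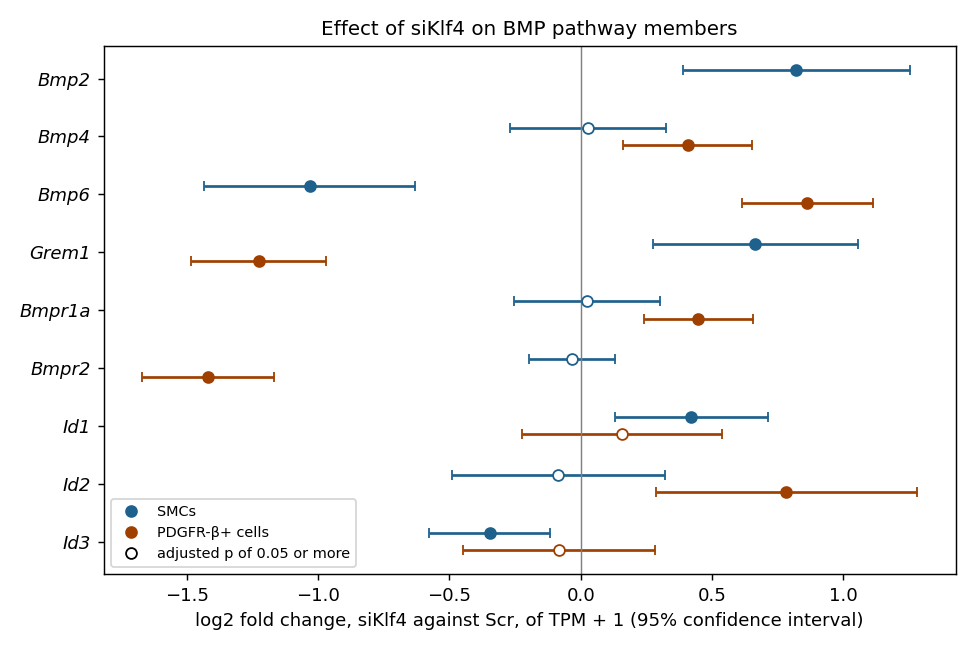
Difference between siKlf4 and Scr on the log2(TPM + 1) scale (horizontal axis) for each gene in SMCs (blue) and PDGFR-β+ cells (brown), with 95% confidence intervals from limma and open points where the adjusted p was 0.05 or more. Bmp6 and Grem1 lie on opposite sides of 0 in the cell types, and Bmpr2 lies near 0 in SMCs and at -1.42 in PDGFR-β+ cells.

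Ratios between the genes within a library show the same data on a scale that the total does not affect. These ratios were chosen after the values were seen. In PDGFR-β+ cells Grem1 was at 163, 133 and 149 times the sum of Bmp2 and Bmp4 with Scr and at 47.7, 47.1 and 42.6 times the sum with siKlf4, a mean ratio 3.24-fold lower. In SMCs the ratio was 7.35 ± 1.62 (SD, n = 3) with Scr and 10.5 ± 1.84 with siKlf4. The SMC libraries thus held far less of the antagonist per ligand in either treatment. Bmpr2 over Bmpr1a was 0.700 ± 0.0347 with Scr and 0.186 ± 0.0118 with siKlf4 in PDGFR-β+ cells, a ratio 3.76-fold lower, whereas in SMCs it was 0.795 ± 0.125 and 0.758 ± 0.0550. Bmp6 over Bmp4 was 0.101 ± 0.0173 and 0.0318 ± 0.00399 in SMCs and 0.269 ± 0.00255 and 0.408 ± 0.0394 in PDGFR-β+ cells. Id1 over Id3 was 0.162 ± 0.0348 and 0.274 ± 0.0223 in SMCs and 0.423 ± 0.0506 and 0.502 ± 0.0688 in PDGFR-β+ cells. The ratios with Scr and siKlf4 overlapped for Bmpr2 over Bmpr1a in SMCs and for Id1 over Id3 in PDGFR-β+ cells. With 3 libraries against 3, the exact two-sided permutation test cannot give a p below 0.1, and these ratios are given as a description.

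**Figure D3:**
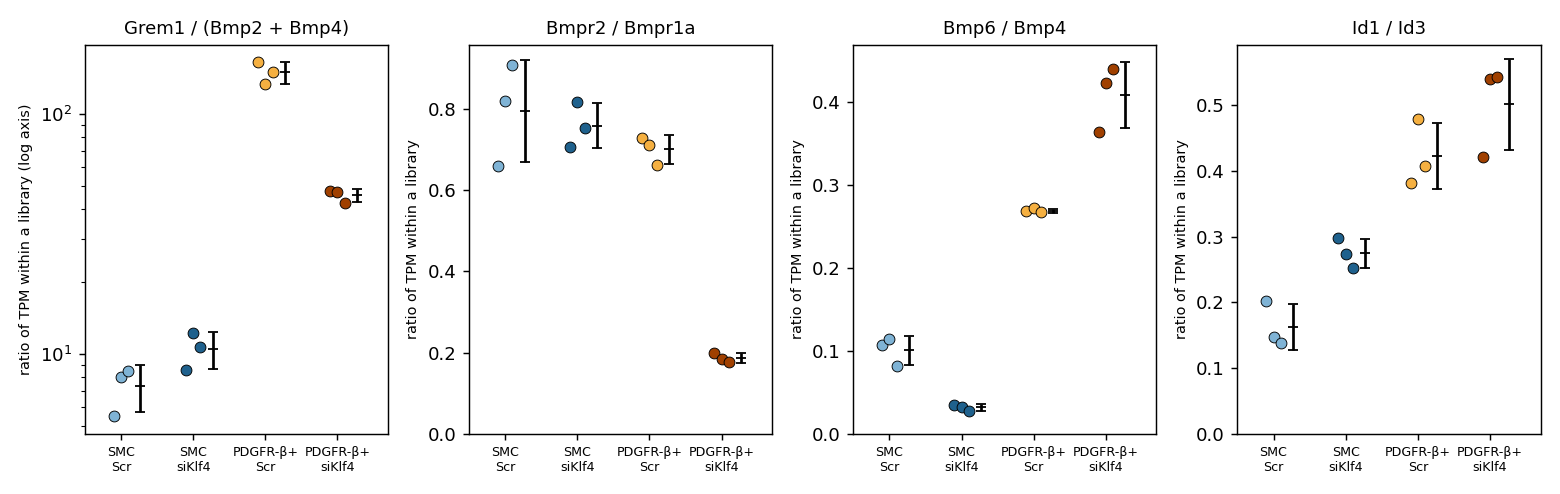
Ratios of TPM between genes within each library (vertical axes, linear from 0 except for the log axis of Grem1 over Bmp2 plus Bmp4), by cell type and treatment, with the mean ± SD of 3 libraries. The ratio of Bmpr2 to Bmpr1a in siKlf4 PDGFR-β+ cells sits at 0.176 to 0.199, below all other libraries.

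Of the target genes, each Id gene had its own pattern. Id1, the family member most often used as a readout of BMP signalling, lies at chr2:152736251-152737410 (forward strand). In SMCs Id1 was at 62.2, 54.9 and 51.6 TPM with Scr and at 88.8, 72.4 and 66.6 TPM with siKlf4, with no overlap. Id1 rose by 0.42 ± 0.12 on the log2(TPM + 1) scale in SMCs (limma, adjusted p = 0.0413). This call changed with single libraries. The adjusted p was 0.109 without Scr replicate 2, 0.113 without Scr replicate 3, 0.0866 without siKlf4 replicate 2 and 0.0804 without the siKlf4 library that has no number. Other settings gave 0.0525 with quantile normalization, 0.0587 without the variance trend, 0.0591 with both cell types in 1 fit and 0.0877 with no filter. In PDGFR-β+ cells Id1 was at 121, 174 and 108 TPM with Scr and at 154, 145 and 142 TPM with siKlf4. Scr replicate 2 was above all siKlf4 libraries and the other Scr libraries were below them, and the difference was 0.16 ± 0.16 (95% confidence interval -0.22 to 0.54, limma, adjusted p = 0.470). Without Scr replicate 2 it was 0.36 (limma, adjusted p = 0.0141). The effects in the cell types differed by 0.26 ± 0.22 (limma interaction, adjusted p = 0.391).

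Id2, which is also known for its part in lymphoid and natural killer cell development, lies at chr12:25093799-25097140 (reverse strand). With Scr it was at 97.2, 117 and 60.6 TPM in PDGFR-β+ cells, and with siKlf4 at 156, 151 and 152 TPM. The Scr libraries spread widely, the siKlf4 libraries lay close together, and the groups did not overlap. Id2 rose by 0.78 ± 0.21 on the log2(TPM + 1) scale in PDGFR-β+ cells (limma, adjusted p = 0.0224). The adjusted p was 0.0604, 0.0578 and 0.0568 without siKlf4 replicates 1, 2 and 3 in turn, and 0.0637 with no filter. In SMCs Id2 was at 59.4, 68.1 and 73.5 TPM with Scr and at 82.9, 54.7 and 54.9 TPM with siKlf4, a difference of -0.09 ± 0.17 (95% confidence interval -0.49 to 0.32, limma, adjusted p = 0.737). The libraries without a number went one way and the numbered ones the other. The unnumbered siKlf4 library was 0.47 above the unnumbered Scr library on the log2 scale, whereas among the 4 numbered libraries alone the difference was -0.36 ± 0.06 (limma, adjusted p = 0.0178). The effects in the cell types differed by -0.87 ± 0.30 (limma interaction, adjusted p = 0.0462). The difference passed in 3 of 12 omissions of a library, with adjusted p-values from 0.0158 to 0.101, and in 7 of 10 other settings. Its adjusted p was 0.0666 with median-ratio scaling, 0.0557 without the variance trend and 0.0841 with no filter. Among the omissions, it failed without Scr replicate 1 or 3 or any siKlf4 replicate of the PDGFR-β+ cells and without any of the 4 numbered SMC libraries.

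Id3 lies at chr4:136143497-136145755 (forward strand) and was the most abundant of the 3 Id genes in every library. In SMCs it was at 308, 373 and 374 TPM with Scr and at 299, 265 and 263 TPM with siKlf4, with no overlap, and the libraries without a number lay closest to the other group. Id3 fell by 0.35 ± 0.10 on the log2(TPM + 1) scale in SMCs (limma, adjusted p = 0.0367), the opposite direction to Id1 in the same cells. The adjusted p was 0.113 without Scr replicate 2, 0.104 without Scr replicate 3, 0.115 without siKlf4 replicate 2 and 0.114 without siKlf4 replicate 3. It was 0.0600 without the variance trend, 0.0825 with both cell types in 1 fit and 0.0806 with no filter, and among the 4 numbered libraries alone the difference was -0.50 ± 0.04 (limma, adjusted p = 0.00403). In PDGFR-β+ cells Id3 was at 316, 363 and 266 TPM with Scr and at 364, 269 and 261 TPM with siKlf4, which overlapped, with a difference of -0.08 ± 0.16 (95% confidence interval -0.45 to 0.28, limma, adjusted p = 0.706). The effects in the cell types differed by -0.26 ± 0.20 (limma interaction, adjusted p = 0.337).

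As a description of pattern, genes were ranked by the correlation of log2(TPM + 1) with each Id gene over the 12 libraries, after centring on the mean of the cell type. The 3 highest were Fam171a1 (Pearson r = 0.945), Ptcd3 (0.935) and Usp28 (0.929) for Id1. For Id2 they were Thumpd2 (0.957), Naa40 (0.938) and Rbm15b (0.928), and for Id3 they were Rarg (0.945), Dnpep (0.935) and Lingo1 (0.924). The points share their libraries and the siKlf4 treatment, and no gene was common to the 3 lists.

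The other genes of the pathway, 55 of 56 listed symbols that the tables hold, set these genes in context. In SMCs 8 of the 42 that were tested rose and 9 fell (40.5% called, beside 28.5% of all genes), with a median difference of -0.07 beside 0.02 over all genes. In PDGFR-β+ cells 10 of 38 rose and 9 fell (50% called, beside 40.6%), with a median of 0.14 beside 0.10 over all genes. Over all genes tested, 2136 of 13709 rose and 1774 fell in SMCs, and 3461 of 13694 rose and 2098 fell in PDGFR-β+ cells. In the interaction test 9 of 36 passed (25%, beside 33% of all genes). Leaving out 1 library at a time, 18 of the 19 calls in PDGFR-β+ cells passed in every omission, Fstl1 being the exception, whereas in SMCs 5 of 17 did (Bmpr1b, Chrd, Crim1, Gdf10 and Nbl1). The number of SMC calls lost was 9 without Scr replicate 2, 3 without Scr replicate 3, 6 without the unnumbered Scr library, 11 without siKlf4 replicate 2, 10 without siKlf4 replicate 3 and 2 without the unnumbered siKlf4 library.

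Among the other ligands, 2 of 7 tested in SMCs fell, Bmp8a (-0.73) and Gdf10 (-1.09), which is 28.6% called beside 28.5% of all genes. Both of the 2 tested in PDGFR-β+ cells fell, Bmp8a (-1.01) and Gdf6 (-0.62), beside 40.6% of all genes called there. No other ligand rose in either cell type. Among the antagonists besides Grem1, 5 of 11 fell and 2 rose in SMCs (63.6% called, beside 28.5% of all genes). In PDGFR-β+ cells 5 of 11 fell and 1 rose (54.5% called, beside 40.6%). Chrd, which encodes chordin, a secreted antagonist of BMP2 and BMP4, fell by 1.50 ± 0.15 in SMCs (limma, adjusted p = 0.00129) and by 0.96 ± 0.16 in PDGFR-β+ cells (adjusted p = 0.00298). Nbl1, of the same DAN family as Grem1, fell by 0.60 in SMCs and by 0.88 in PDGFR-β+ cells. Fst, the activin antagonist follistatin, went the other way to Grem1 in each cell type: it fell by 0.33 in SMCs (limma, adjusted p = 0.0380) and rose by 0.75 in PDGFR-β+ cells (adjusted p = 0.000419). Its fall in SMCs passed in 2 of 6 omissions of a library, while the rise passed in 6 of 6. Those that passed also included Chrdl1 (-1.72), Twsg1 (-0.35) and Crim1 (0.32) in SMCs and Fstl1 (-0.32), Fstl3 (-1.13) and Crim1 (-0.54) in PDGFR-β+ cells.

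Among the other receptors and co-receptors, 3 of 8 rose and 1 fell in SMCs (50% called, beside 28.5% of all genes). In PDGFR-β+ cells 4 of 8 rose and 2 fell (75% called, beside 40.6%). Bmpr1b, another type I receptor, rose in both: from 4.94, 5.89 and 5.78 TPM to 9.82, 10.2 and 10.3 TPM in SMCs, and from 16.7, 14.0 and 15.1 TPM to 27.7, 26.9 and 22.1 TPM in PDGFR-β+ cells. This was 0.77 ± 0.10 on the log2 scale in SMCs (limma, adjusted p = 0.00324) and 0.70 ± 0.11 in PDGFR-β+ cells (adjusted p = 0.00257). In PDGFR-β+ cells, where Bmpr2 fell, the type I receptor Acvrl1 (0.63) and the co-receptors Rgmb (1.07) and Rgma (0.48) rose too, while Acvr1 (-0.40) and the co-receptor Tgfbr3 (-0.79) fell. Acvr2a, another type II receptor, had a difference of 0.38 in both cell types and passed in SMCs alone (limma, adjusted p = 0.0210 and 0.0689), and the interaction had an adjusted p of 0.999. Eng (0.43) rose and Rgma (-0.45) fell in SMCs.

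Inside the cell, 3 of 8 SMADs and their inhibitors rose and 1 fell in SMCs (50% called, beside 28.5% of all genes). In PDGFR-β+ cells 2 of 8 rose and 0 fell (25% called, beside 40.6%). Smad7, an inhibitory SMAD, was at 9.51, 14.9 and 15.9 TPM in Scr SMCs and at 19.5, 25.0 and 25.5 TPM in siKlf4 SMCs, and rose by 0.77 ± 0.20 (limma, adjusted p = 0.0270). Smad1 fell by 0.33 in SMCs, and the ubiquitin ligases Smurf1 (0.31) and Smurf2 (0.28) rose. In PDGFR-β+ cells Smad4 (0.36) and Smurf2 (0.84) rose. Of the other target genes, 0 of 5 passed in SMCs and 2 of 6 rose in PDGFR-β+ cells (33.3% called, beside 40.6% of all genes). Id4, the remaining Id gene, was at 6.70, 8.73 and 6.27 TPM with Scr and at 25.5, 25.2 and 22.5 TPM with siKlf4 in PDGFR-β+ cells, a rise of 1.64 ± 0.13 (limma, adjusted p = 0.000101). In SMCs Id4 was at 8.84, 6.92 and 5.85 TPM with Scr and at 6.49, 3.95 and 4.62 TPM with siKlf4, a difference of -0.45 ± 0.20 (limma, adjusted p = 0.132). With a term for the SMC libraries without a number, the adjusted p of this difference was 0.0205. Bambi, a decoy receptor that BMP signalling induces, rose by 0.78 in PDGFR-β+ cells. Tcf3, which encodes E-protein partners of the ID proteins, rose there by 0.42, as 1 of 3 E-protein genes (33.3%, beside 40.6% of all genes). None of the 3 passed in SMCs.

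**Figure D4:**
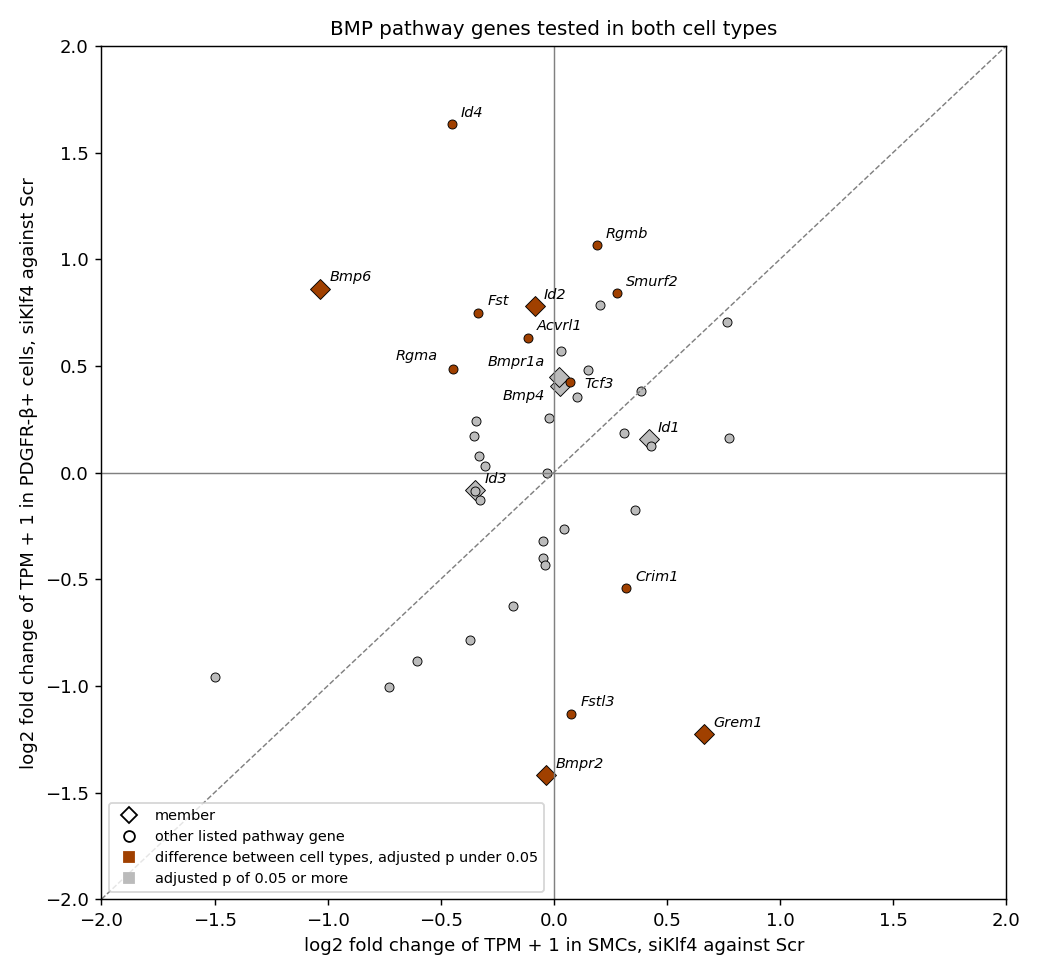
Difference between siKlf4 and Scr on the log2(TPM + 1) scale in SMCs (horizontal) and in PDGFR-β+ cells (vertical) for the 44 pathway genes tested in both, with diamonds for the genes described here, circles for the other listed genes and brown for an adjusted p below 0.05 in the test of the difference. Points on the dashed line have the same difference in both. Bmp6 and Id4 lie at the upper left, and Grem1 at the lower right.

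Across the 3 Scr libraries of the PDGFR-β+ cells, replicate 2 had the highest TPM for 12 of 12 BMP target genes, which were Id1, Id2, Id3, Id4, Smad6, Smad7, Smad9, Bambi, Atoh8, Msx1, Msx2 and Hey1. This set was put together after the values were seen. Of all 13694 genes tested in these cells, 36.8% were highest in the same library, 41.2% in Scr replicate 1 and 22% in Scr replicate 3. Smad6, a feedback inhibitor that BMP signalling induces, was at 34.3, 48.3 and 28.0 TPM in Scr replicates 1 to 3 and at 42.9, 33.4 and 32.3 TPM in siKlf4 replicates 1 to 3. These groups overlapped, and the mean over 3 libraries was 36.9 TPM with Scr and 36.2 TPM with siKlf4. No test was made of this pattern.

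**Figure D5:**
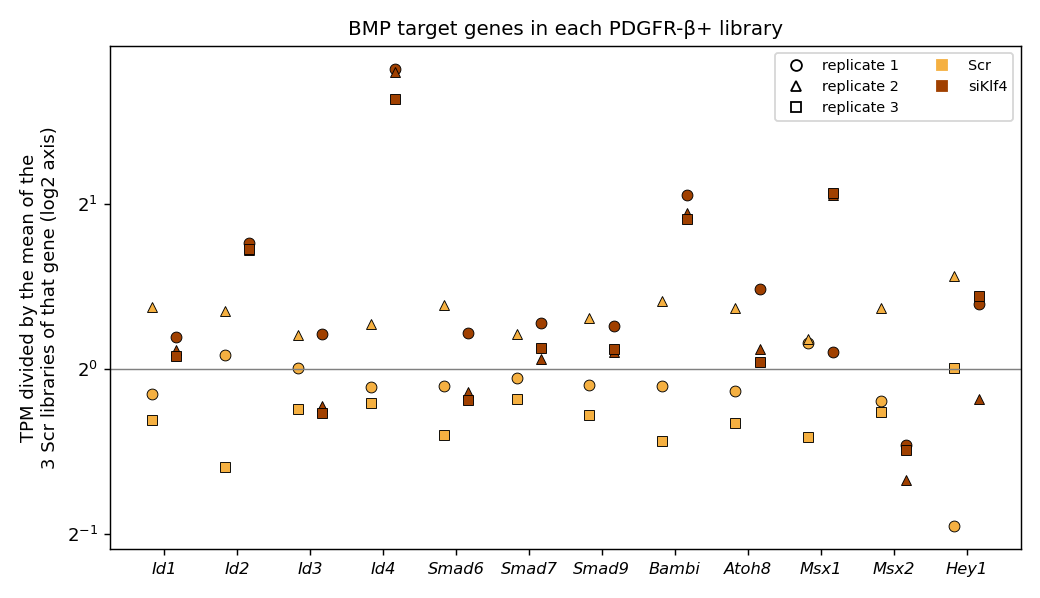
TPM of 12 BMP target genes in each PDGFR-β+ library, divided by the mean of the 3 Scr libraries of that gene (vertical axis, log2 scale), with Scr in yellow, siKlf4 in brown and a symbol for each replicate number. The triangle of Scr replicate 2 is the highest of the Scr points for each gene. Id4, Id2 and Bambi lie higher with siKlf4 in every replicate, and Msx2 lies lower in every replicate.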

How the data were processed

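TPM values were deposited by the authors in 1 table per cell type. By the study's methods they trimmed the reads (100 bp paired-end, strand-specific mRNA libraries), used HISAT2 to align them to mm10 with GENCODE annotation, and estimated abundance by StringTie and ballgown, without pooling replicates. The GENCODE release and the HISAT2 and StringTie versions are not given in the sources used here. Each library's TPM sums to 1000000 and holds no depth, so counting error is unknown and precision rests on 3 libraries per group. The authors tested counts with DESeq2, which were not used here.

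Values were analysed as log2(TPM + 1) by limma 3.58.1 in R 4.3.3 (lmFit, eBayes with a trend) for genes whose mean in the 6 libraries of that cell type reached 1 TPM, two-sided, with Benjamini-Hochberg adjustment over all genes tested and a threshold of 0.05. The cell types were compared by the interaction term over 12 libraries. Every column was used. The scripts were tested on simulated data. The genes, the pathway and marker lists and the rule for naming genes (the 9 members, Klf4, pathway genes past the threshold and the 3 genes most correlated with each Id gene) were chosen with earlier results of these data known. The values of 1 listed pathway gene are not reported here. Positions are from GENCODE M21 and matched by gene identifier. Alternatives were another pseudocount, filter, scaling, variance model and fit, a block, and the omission of each library.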

Additional observations from a re-analysis of the deposited data

Results flagged for a closer look

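By the limma interaction term over 12 libraries, the siKlf4 effect was unequal in SMCs and PDGFR-β+ cells for 4 of the genes described here. The SMC effect minus the PDGFR-β+ effect on the log2(TPM + 1) scale was -1.90 for Bmp6, 1.89 for Grem1, 1.39 for Bmpr2 and -0.87 for Id2. For Bmp6 and Grem1 each effect also passed alone, with opposite signs. The differences of Bmp6, Grem1 and Bmpr2 passed in 12 of 12 omissions of a library. That of Id2 passed in 3 of 12 omissions and in 7 of 10 other settings. Alone in SMCs, the rise of Grem1 passed in 4 of 6 omissions.

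The same test passed for 9 other pathway genes. The difference was -2.09 for Id4, -1.08 for Fst, -0.93 for Rgma, -0.88 for Rgmb, -0.75 for Acvrl1, -0.56 for Smurf2 and -0.35 for Tcf3, whose siKlf4 effects were higher in PDGFR-β+ cells. It was 1.21 for Fstl3 and 0.86 for Crim1, whose effects were higher in SMCs. Of these, Fst, Rgma and Crim1 passed in each cell type alone with opposite signs. In the test of the difference, all but Tcf3 passed in each of 12 omissions of a library, and Tcf3 failed in 9 of them. Alone in SMCs, the fall of Rgma passed in 3 of 6 omissions and that of Fst in 2 of 6, while the rise of Crim1 passed in 6 of 6. In PDGFR-β+ cells Rgma, Fst and Crim1 each passed in 6 of 6.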

How the results depend on the processing

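With 5 genes past the threshold in SMCs, the count was 1 with no filter on low values, and 3 each with a minimum mean of 5 TPM (which drops Bmp2 and Bmp6 from the test), without the variance trend and with both cell types in 1 fit. Omitting a library gave 1 to 5, against 4 to 7 for the 6 in PDGFR-β+ cells, 3 to 6 for the 4 that differed between the cell types and 5 to 6 for the 5 not overlapping at baseline. Other settings gave 5 or 6 in PDGFR-β+ cells and 3 to 6 for the difference. Apart from the fall of Bmp6 at a minimum of 5 TPM in SMCs, where it was not tested, Bmp6 in both cell types, and in PDGFR-β+ cells Grem1, Bmpr1a and Bmpr2, passed under every setting in which they were tested. Of the 17 other pathway genes called in SMCs, 8 did not pass with no filter, 5 with the block, 4 without the trend and 4 with quantile normalization.

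Signs turned only for differences that did not pass. In SMCs, quantile normalization gave -0.0071 for Bmp4, -0.035 for Bmpr1a and -0.0042 for Tcf3. Omitting a library gave -0.10 to 0.15 for Bmp4, -0.052 to 0.14 for Bmpr1a, -0.061 to 0.0047 for Bmpr2, -0.28 to 0.014 for Id2, -0.24 to 0.021 for Acvrl1 and -0.044 to 0.18 for Fstl3 in SMCs, and -0.23 to 0.025 for Id3 in PDGFR-β+ cells. The cause was not tested.

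In the PDGFR-β+ libraries the values gave no sign of pairing by replicate number, with correlations of 0.073, -0.016 and 0.0043 between same-numbered deviations. Such values cannot show that the libraries were unpaired. In SMCs only 2 pairs are numbered, with 0.185 and 0.199. The unnumbered libraries had 0.361, above every mismatched pair (at most 0.050). Mismatched pairs with an unnumbered library were at -0.217 to -0.190. Pairing and a difference that the unnumbered libraries share cannot be told apart from these values, and the labels state no pairing. With the replicate number as a block over the numbered libraries, 6 genes passed in SMCs, 6 in PDGFR-β+ cells and 6 for the difference, and Bmp4 in SMCs was at -0.11, as with the numbered libraries alone (-0.11). Over all genes the block gave 2853 calls in SMCs, against 3965 in the same numbered libraries without it and 3910 in all libraries, 5641 in PDGFR-β+ cells against 5559, and 3882 for the difference against 3994 and 4297. A term for the SMC libraries without a number gave 5492 calls in SMCs, among them Id4 (adjusted p = 0.0205) and Rgmb (adjusted p = 0.0417), and 5 of the genes described here.

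Of all genes called in PDGFR-β+ cells, 62.3% were higher with siKlf4, against 47.0% with median-ratio scaling and 49.7% with quantile normalization, and median-ratio scaling moved the median difference over all genes from 0.10 to -0.0032. For the difference the share was 43.9% against 56.7% with median-ratio scaling. TPM holds no depth, and 3 libraries per group limit the precision.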

Other observations

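In SMCs the column names set 1 library per treatment apart, since these carry no replicate number, and several of the genes described here differed by another amount there. The siKlf4 library without a number minus the Scr library without a number was 0.39 on the log2(TPM + 1) scale for Bmp2, 0.97 for Grem1, -0.87 for Bmp6, 0.51 for Id1, 0.47 for Id2, -0.04 for Id3, 0.31 for Bmp4, 0.05 for Bmpr2 and -0.05 for Bmpr1a. Among the 4 numbered libraries the same difference was 1.04 for Bmp2, 0.51 for Grem1, -1.11 for Bmp6, 0.38 for Id1, -0.36 for Id2, -0.50 for Id3, -0.11 for Bmp4, -0.07 for Bmpr2 and 0.06 for Bmpr1a. The sign thus differed for Id2, Bmp4, Bmpr2 and Bmpr1a. Klf4 itself differed by -1.72 between the unnumbered libraries and by -2.38 among the numbered ones. Over all genes tested in SMCs, the deviations of the unnumbered libraries from their group means had a correlation of 0.361 with each other, against 0.185 and 0.199 for the same-numbered pairs. No test was made of this contrast, since each treatment has 1 such library.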
